A study of Mus musculus with 4 samples.

Results

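The cyclin D-CDK4/6-RB-E2F pathway was examined in the transcriptomes of leukemia-initiating cells (LICs) through 10 genes fixed by name. They are the D cyclins Ccnd1, Ccnd2 and Ccnd3, the kinases Cdk4 and Cdk6, the pocket proteins Rb1, Rbl1 and Rbl2, and the transcription factors E2f1 and E2f2. All 10 were found among the 27179 genes of the expression table, and all 10 were among the 13230 genes with enough signal to be tested. LICs were the Mac-1+/c-Kit+ cells of a murine acute myeloid leukemia driven by the fusion oncogene MLL-AF9, which had been delivered by retrovirus into lineage-negative fetal liver cells. Infected cells were grown in lethally irradiated C57BL/6 mice, so wild-type host cells surrounded the leukemia in every recipient. RNA was sequenced in 4 libraries from bone marrow of C57BL/6 mice aged 6 weeks by their labels, of which 2 are labelled WT and 2 CD274-null, the latter from knockout cells lacking the immune checkpoint ligand CD274 (PD-L1). The study's sequencing methods speak of RNA from tissue and the labels of sorted cells, so the purity of the cells is not settled. MLL-AF9 was shared by both groups, and its vector carried a YFP marker. Whether YFP was part of the sort, which round of transplantation was sampled, and whether the replicates were separate animals are not given in the sources used here, so the p-values measure the spread between these libraries, which may be technical.

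D-type cyclins are the part of the cell cycle machinery that answers to growth signals. Bound to CDK4 or CDK6, they phosphorylate RB and its relatives p107 (Rbl1) and p130 (Rbl2), which otherwise hold E2F transcription factors and keep genes of DNA synthesis low. Release of E2F lets a cell pass from G1 into S phase. In blood cells CDK6 and the cyclins D2 and D3 are prominent members, and CDK6 is known as a dependency of leukemias with MLL fusions. The comparison asked which steps of this pathway differed at the RNA level between LICs labelled WT and CD274-null.

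Values are FPKM, sequenced fragments divided by gene length and library depth, a scale that allows levels of different genes to be set side by side. Reads assigned to genes, recovered from the steps of the values, numbered 10931340 and 9565581 for WT against 8219999 and 9266645 for CD274-null. Some features of the libraries bear on all that follows. Cd274 itself stood at 2.80 and 0.945 FPKM under the WT label and at 1.43 and 2.29 under the CD274-null label, so its level did not separate the labels, and every direction below rests on the labels alone. Itgam, which encodes the Mac-1 alpha chain, lay between 100.2 and 174 FPKM while Kit was at 6.59 and 18.2 in WT against 16.2 and 19.5 in CD274-null, so both sorting markers were detected in every library, with Kit lowest in WT replicate 1, the library with the highest neutrophil sum. WT replicate 2 had the lowest summed FPKM of 10 neutrophil genes, 8796 against 43483 in WT replicate 1 and 18350 and 31402 under the CD274-null label. The same library had the highest Hbb-bs, a globin gene of red cells, at 26.9 FPKM against 0 to 3.01 in the others. Xist, the RNA of the inactive X chromosome, was at 2.57 and 51.1 FPKM in WT against 107 and 68.7 in CD274-null, while 4 genes of the Y chromosome summed to 86.0 and 66.2 against 0.0460 and 29.4. Sex-linked RNA thus moved with the label in part, and its part in the results was not tested.

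Genes were compared on log2(FPKM + 0.5) with limma, and a gene is called here when its unadjusted p was under 0.01 and its fold change above 1.5, the thresholds used for candidate genes of this experiment. Over all tested genes 3.63% were called, 1.24% as lower and 2.39% as higher in the CD274-null libraries. Of the 10 pathway genes 3 were called, Ccnd1, Ccnd2 and Cdk6, all lower in the CD274-null libraries. None of the 10 had an adjusted p under 0.05 (limma, Benjamini-Hochberg), a threshold passed by 0.0756% of all tested genes, and the same 3 had an unadjusted p under 0.05, as did 13.7% of all tested genes. The count with an adjusted p under 0.05 was also 0 by voom on recovered reads. The CD274-null values lay outside the range of the WT values for these 3 genes and overlapped it for the other 7. Over all tested genes 47.3% had groups that did not overlap, 21.8% with CD274-null lower and 25.6% with it higher, so separation of 2 libraries from 2 was common. An exact permutation test of such a design cannot give a two-sided p below 0.333.

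**Figure D1:**
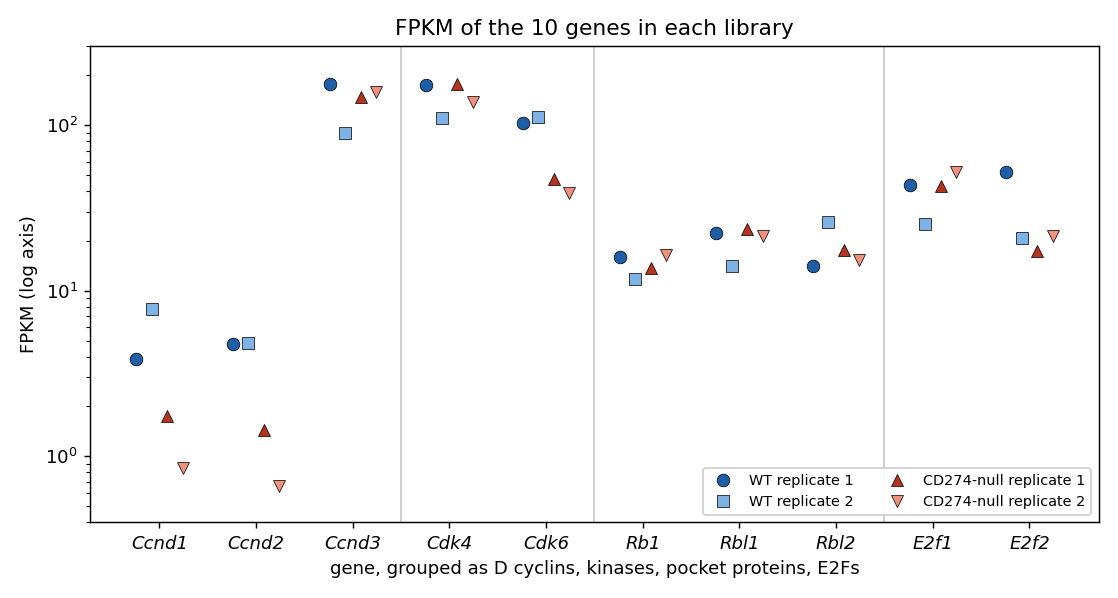
FPKM of the 10 genes on a log axis, with 1 symbol per library (circle and square: WT, triangles: CD274-null) and vertical lines between the families. Ccnd1, Ccnd2 and Cdk6 are the genes with both CD274-null symbols below both WT symbols, and Ccnd1 and Ccnd2 lie below the other 8 genes in every library.

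By mean FPKM the most abundant of the 10 genes were Cdk4, Ccnd3 and Cdk6, although in the CD274-null libraries the mean of E2f1, 47.5, was above the 43.2 of Cdk6. Averaged over the 4 libraries, Cdk4 stood at 149.8 FPKM, Ccnd3 at 143 and Cdk6 at 75.2, followed by E2f1 at 40.8, E2f2 at 27.8, Rbl1 at 20.3, Rbl2 at 18.2 and Rb1 at 14.5. Ccnd1 and Ccnd2 closed the order at 3.56 and 2.93 FPKM. Ccnd3 and Cdk4 exceeded 96.1% and 96.5% of the tested genes, whereas Ccnd1 and Ccnd2 exceeded 24.5% and 21.5%. Neighbours in this order often changed places. Ccnd3 led in WT replicate 1 and CD274-null replicate 2, Cdk4 in CD274-null replicate 1 and Cdk6 in WT replicate 2, so Cdk4 and Ccnd3 did not differ beyond their spread. E2f1, E2f2, Rb1, Rbl1 and Rbl2 also exchanged ranks between libraries, and in CD274-null replicate 2 E2f1 (51.8) was above Cdk6 (38.9). The gap above Ccnd1 and Ccnd2 did not close in any library, since their highest value, 7.79 for Ccnd1 in WT replicate 2, was below the 11.7 of Rb1 there, the lowest value among the other 8 genes.

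Ccnd2 encodes cyclin D2, a D cyclin induced by cytokines in many blood cells (NCBI gene 12444, chr6:127125162-127152188 of GRCm38). Both WT libraries gave nearly the same FPKM, 4.78 and 4.82, against 1.45 and 0.661 in CD274-null, from 319, 283, 74 and 38 reads. Both CD274-null libraries were below both WT libraries, although they differed 2.19-fold from each other. In bulk RNA such as this, fewer cells of a type and less RNA per cell cannot be told apart. The mean in the CD274-null libraries, 1.06 ± 0.558 (SD, n = 2), was 22.0% of the WT mean of 4.80 ± 0.0269 (SD, n = 2). The log2 fold change was -1.82 (standard error 0.39, 95% interval -2.77 to -0.86), with an unadjusted p of 0.00329 and an adjusted p of 0.251 in limma. Counting error alone allowed 1.14 to 1.82 FPKM in CD274-null replicate 1 and 0.468 to 0.907 in CD274-null replicate 2 (exact 95% Poisson intervals). These ranges do not meet, nor do they reach the WT values. The call was lost, with the same sign, when WT replicate 1 (-1.82, unadjusted p of 0.0144), WT replicate 2 (-1.81, unadjusted p of 0.0145) or CD274-null replicate 2 (-1.44, unadjusted p of 0.0278) was left out of the limma fit.

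Ccnd1 encodes cyclin D1, the D cyclin best known from epithelial tumors (NCBI gene 12443, chr7:144929931-144939831). It measured 3.85 and 7.79 FPKM in WT against 1.76 and 0.847 in CD274-null, from 169, 301, 59 and 32 reads. Both CD274-null values were below both WT values, and within the groups the replicates differed 2.02-fold for WT and 2.08-fold for CD274-null. The CD274-null mean was 22.4% of the WT mean, close to the share found for Ccnd2. The log2 fold change was -1.78 (standard error 0.47, 95% interval -2.91 to -0.65), with an unadjusted p of 0.00806 and an adjusted p of 0.274 in limma. Among the fits that left out a library, Ccnd1 was called only without WT replicate 1 (-2.25), and it was not called without a filter, without moderation or under GC correction with the replicate block. The call was lost without WT replicate 2 (-1.32, unadjusted p of 0.0441), CD274-null replicate 1 (-2.16, unadjusted p of 0.0294) or CD274-null replicate 2 (-1.41, unadjusted p of 0.0869 in limma).

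Ccnd3, which encodes cyclin D3, stood apart from its relatives in both level and comparison. It reached 178 and 89.5 FPKM in WT against 148 and 158 in CD274-null. The CD274-null libraries were close together and lay between the WT libraries, of which replicate 2 was the lowest of the 4. The log2 fold change was 0.28 (95% interval -0.56 to 1.11, adjusted p = 0.751 in limma), and it turned to -0.22 without WT replicate 2. The interval excludes a decrease of the size fitted for Ccnd1 or Ccnd2, while whether the genes differ from each other in response was not tested.

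Because Ccnd3 was so abundant, the lower levels of Ccnd1 and Ccnd2 left the summed D cyclin RNA overlapping between the groups. Summed FPKM of the 3 genes was 186 and 102 in WT against 151 and 159 in CD274-null. Ccnd3 made up 95.4% and 87.7% of the sum in WT against 97.9% and 99.1% in CD274-null. Ccnd2 made up 2.56% and 4.72% in WT against 0.957% and 0.415% in CD274-null. Ccnd1 made up 2.06% and 7.63% against 1.16% and 0.531%. The WT libraries differed more in the summed level than the group means did, and these sums and shares are descriptions without a test.

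**Figure D2:**
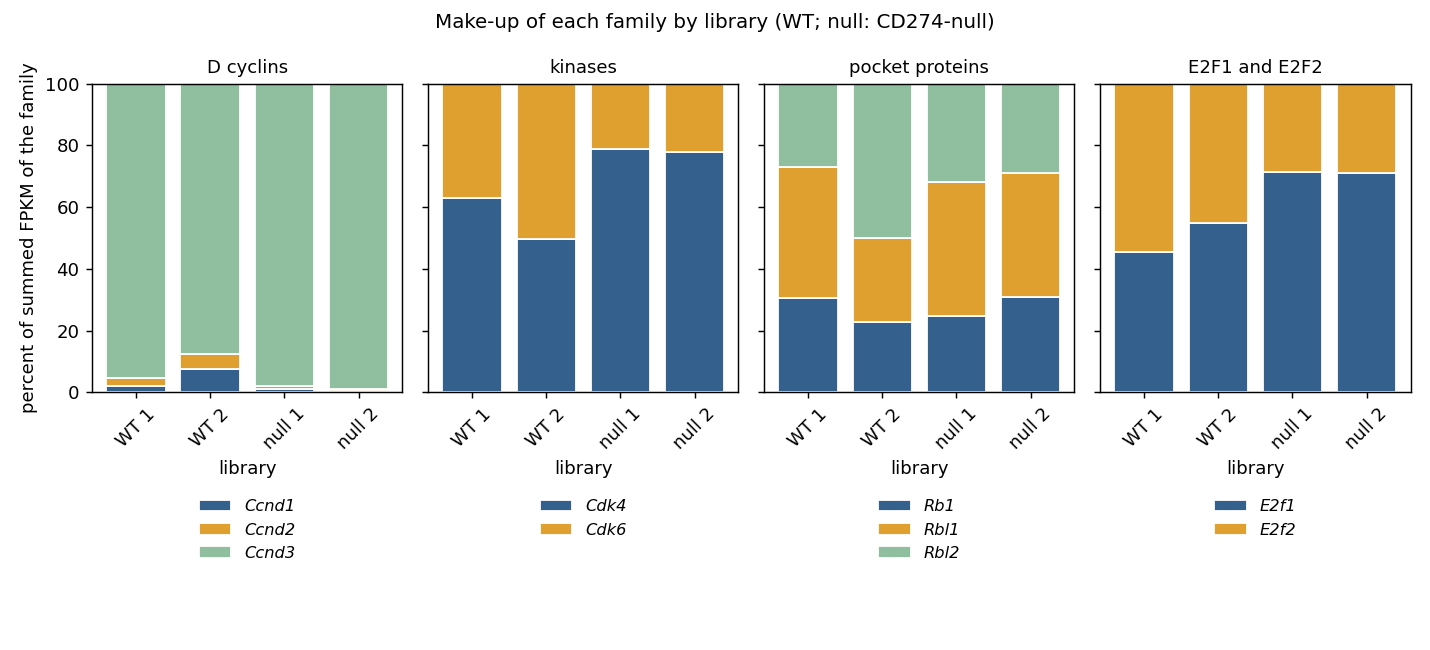
Share of each gene in the summed FPKM of its family (percent, vertical axis) in each library (horizontal axis). Ccnd3 fills 87.7% to 99.1% of the D cyclin bar, Cdk6 takes 36.9% and 50.3% of the kinase bar in WT against 21.2% and 22.1% in CD274-null, and E2f1 takes 45.5% and 54.9% of the last bar in WT against 71.4% and 70.9% in CD274-null.

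Cdk6, the partner kinase of the D cyclins that is characteristic of blood cells (NCBI gene 12571, chr5:3341004-3531008), gave the smallest unadjusted p of the 10 genes. It measured 102 and 112 FPKM for WT against 47.5 and 38.9 for CD274-null, from 2924, 2815, 1037 and 958 reads. Replicates were close in both groups, at most 1.22-fold apart, and the groups were well separated. The CD274-null mean of 43.2 ± 6.03 was 40.3% of the WT mean of 107 ± 6.79 (SD, n = 2 each). The log2 fold change was -1.31 (standard error 0.21, 95% interval -1.82 to -0.79), with an unadjusted p of 0.000729 and an adjusted p of 0.172 in limma. Without CD274-null replicate 2 it was -1.16 with an unadjusted p of 0.0131, above the threshold, and the call was kept without each of the other 3 libraries.

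Cdk4, the second kinase of the pair, was not called, and whether it differs from Cdk6 in response was not tested. It reached 175 and 111 FPKM in WT against 176 and 137 in CD274-null. Its groups overlapped almost completely, with a log2 fold change of 0.16 (95% interval -0.55 to 0.87, adjusted p = 0.841 in limma), and the sign turned without WT replicate 2 (-0.17) or CD274-null replicate 1 (-0.02). The ratio of Cdk6 to Cdk4 was 0.585 and 1.01 in WT against 0.269 and 0.284 in CD274-null. Summed kinase RNA was 277 and 223 FPKM in WT against 224 and 176 in CD274-null, so the sums overlapped where the ratios did not. Neither was tested.

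**Figure D3:**
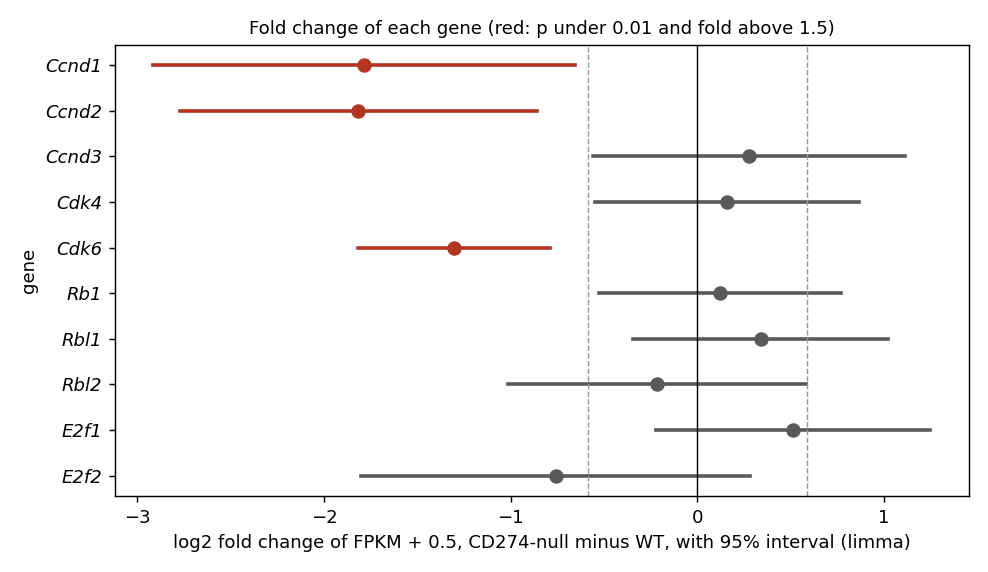
Log2 fold change of FPKM + 0.5 (CD274-null minus WT, horizontal axis) of each gene with its 95% interval from limma, with called genes in red and dashed lines at a fold of 1.5. The intervals of Ccnd1, Ccnd2 and Cdk6 lie wholly below 0, and those of the other 7 genes cross 0.

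The pocket proteins showed no call. Rb1, which encodes RB itself, had an FPKM of 16.0 and 11.7 in WT against 13.6 and 16.4 in CD274-null (log2 fold change 0.12, 95% interval -0.52 to 0.77). Rbl1, whose product p107 is itself made under E2F control in cycling cells, was at 22.2 and 14.1 in WT against 23.7 and 21.4 in CD274-null (0.34, -0.35 to 1.02). Rbl2, whose product p130 is the pocket protein of resting cells, was at 14.1 and 25.9 in WT against 17.6 and 15.3 in CD274-null (-0.22, -1.01 to 0.58). WT replicate 2 was the lowest of the 4 libraries for Rb1 and Rbl1 and the highest for Rbl2. Of the 4 family sums that of the pocket proteins ranged least, at 52.3 and 51.7 FPKM in WT against 54.9 and 53.2 in CD274-null, although Rbl2 alone ranged from 26.9% to 50.1% of it. Without WT replicate 2 the sign turned for Rb1 (-0.095) and Rbl2 (0.21), and for Rb1 also without CD274-null replicate 2 (-0.01).

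E2f1 and E2f2 encode activator E2Fs, the transcription factors that pocket proteins restrain. E2f1 had an FPKM of 43.2 and 25.2 in WT against 43.1 and 51.8 in CD274-null, with a log2 fold change of 0.51 (95% interval -0.22 to 1.24, adjusted p = 0.494 in limma). E2f2 had an FPKM of 51.8 and 20.7 in WT against 17.3 and 21.3 in CD274-null, with a log2 fold change of -0.76 (95% interval -1.80 to 0.28, adjusted p = 0.474). For E2f2 a single library stood out, WT replicate 1, which was 2.50 times WT replicate 2, while the other 3 lay close together. Whether E2f2 was called depended on the WT library compared. Without WT replicate 2 the log2 fold change was -1.41 (unadjusted p of 0.00252 and adjusted p of 0.143 in limma), and without WT replicate 1 it was -0.11. E2f1 made up 45.5% and 54.9% of the summed RNA of both genes in WT against 71.4% and 70.9% in CD274-null. The groups did not overlap in this share, although neither gene was called. The share was not tested, and groups did not overlap for 47.3% of all tested genes.

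Ccnd2 and Cdk6 were also followed in the study by quantitative PCR, and the stretches that its primers span are shown to place those assays on annotated transcripts, of which the Cdk6 transcript has the length behind its FPKM and the Ccnd2 transcript does not. Both were found by matching the primers to GENCODE M21 transcripts of GRCm38, read 5′ to 3′ along the transcript with the primer sites in capitals. The Ccnd2 stretch of 154 bases lies in coding sequence of exon 3 at chr6:127146029-127146182 on the minus strand, and neither primer matched a transcript of another gene. The Cdk6 stretch of 187 bases joins coding sequence of exons 2 and 3, at chr5:3390793-3390816 and chr5:3428991-3429153 on the plus strand, and its reverse primer also matched transcripts of 6 other genes.
Ccnd2 amplicon: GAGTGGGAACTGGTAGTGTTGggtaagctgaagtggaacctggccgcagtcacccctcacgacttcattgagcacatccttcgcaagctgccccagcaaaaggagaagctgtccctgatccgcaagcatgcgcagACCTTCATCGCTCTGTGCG
Cdk6 amplicon: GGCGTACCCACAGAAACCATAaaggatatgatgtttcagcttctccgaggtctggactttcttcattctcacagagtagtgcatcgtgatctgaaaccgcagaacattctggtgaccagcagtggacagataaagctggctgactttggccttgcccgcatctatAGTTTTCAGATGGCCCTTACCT

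The FPKM values imply a gene length, which equalled that of the annotated transcript compared for Cdk6 and E2f2 and differed from it for the other 8 genes. For Cdk6 this length was 2470 bases, that of an annotated transcript, out of 13989 exon bases annotated for the gene, and for E2f2 it was 4739 bases, again that of an annotated transcript. Absolute levels depend on this choice, as the share of Cdk6 among the kinases in WT was 25.02% when the reads were divided by all annotated exon bases, against 43.6% as deposited. The ratio of FPKM between groups for 1 gene does not depend on its length. The fitted log2 fold change does in part, most for low genes, because a fixed constant was added to FPKM. With 0.1 or 1 added instead, it was -2.17 or -1.52 for Ccnd2, -2.07 or -1.53 for Ccnd1 and -1.31 or -1.30 for Cdk6. Ccnd1, Ccnd2 and Cdk6 were called in both of these fits. Which genes pass the FPKM filter also depends on length. Between the transcripts of any pair within a family the longest identical stretch was 23 bases (E2f1 and E2f2), shorter than a 50-base read. More sequence was shared with neighbouring genes and with gene copies, and the library kit does not mark the strand. Of the possible 50-base reads of Ccnd1, 27.2% also occur in its neighbour LTO1, which had an FPKM of 8.03, 13.4, 11.3 and 8.71 in the order above. The share found in any other gene was 21.7% for Ccnd3 (its neighbour Bysl and the pseudogene Ccnd3-ps), 11.3% for Rbl2, 5.17% for Ccnd2 and 5.08% for Cdk6. The log2 fold change of LTO1 was -0.07, and that of Bysl, the neighbour sharing sequence with Ccnd3, was 0.26. For Cdk4, 19.7% of the exon bases overlap Tspan31, which was at 21.2 and 23.9 FPKM in WT against 42.1 and 33.0 in CD274-null. However, 0 of the 1133 possible 50-base reads of the Cdk4 transcript compared occur in another gene.

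E2F factors can act on genes of their own pathway, so the promoters in the RefSeq table of GRCm38.p6 were searched for E2F letters, from 250 bases before to 50 bases after each gene start. The table held 9 promoters of 7 genes, Ccnd3, Cdk4, Cdk6, Rbl1, Rbl2, E2f1 and E2f2, while Ccnd1, Ccnd2 and Rb1 were not analysed here. The letters TTTCCCGC, TTTCGCGC, TTTGCCGC and TTTGGCGC, on either strand, occurred in 2.26% of all 32851 promoters. They occurred in 2 of the 9, those of Rbl1 and E2f2, printed here along the gene's strand with the match in capitals because these genes encode a pocket protein and an E2F. The Rbl1 stretch is chr2:157204534-157204563 (minus strand), with the match 18 bases before the start, and the E2f2 stretch is chr4:136172302-136172323 (plus strand), with the match at base 40 after it. The AP-1 letters TGACTCA and TGAGTCA, searched because AP-1 is the factor fed by JNK signalling, occurred in 5.2% of all promoters and in 0 of the 9. A match of letters is a description of the sequence and not a bound site.
Rbl1 promoter: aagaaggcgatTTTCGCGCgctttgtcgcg
E2f2 promoter: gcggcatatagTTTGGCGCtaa

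The rest of the pathway was described through 8 lists with 100 genes, of which 98 were tested. Among these, 1 gene was called higher and 1 lower in CD274-null, beside 3.63% of all tested genes called. None had an adjusted p under 0.05 in limma, and 7 had an unadjusted p under 0.05, beside 13.7% of all tested genes. By voom the count with an adjusted p under 0.05 was 0 over all genes. The median log2 fold change was 0.11, beside 0.01 for all tested genes. The lists differ in their place in the pathway, and they are taken in that order.

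CDK inhibitors, which block cyclin D kinases or CDK2, held the gene called lower. Cdkn2a, whose locus encodes p16 and, from another reading frame, p19, had an FPKM of 16.4 and 5.10 in WT against 0.896 and 1.86 in CD274-null, from 215, 59, 9 and 21 reads. All CD274-null values were below the WT values, and the log2 fold change was -2.42 (95% interval -3.83 to -1.01, unadjusted p of 0.00548, adjusted p of 0.269 in limma), and a value per gene does not separate its products. Cdkn2d (p19INK4d) was at 150.3 and 69.9 FPKM in WT against 52.0 and 53.5 in CD274-null (-0.95, 95% interval -1.84 to -0.06), short of a call. Cdkn1a (p21) was at 63.1 and 32.1 in WT against 40.7 and 108 in CD274-null, so that the CD274-null libraries held both an intermediate and the highest value. Cdkn1b (p27) was at 22.7 and 23.0 in WT against 29.9 and 22.9 in CD274-null. Cdkn2c (p18INK4c), named after its values were seen, was at 7.89 and 6.04 in WT against 10.9 and 11.6 in CD274-null (0.67, 95% interval 0.014 to 1.32), also short of a call. Of 7 inhibitors 6 were tested, with a median of -0.03. The call of Cdkn2a was lost without WT replicate 1, CD274-null replicate 1 or CD274-null replicate 2, and also by voom, with equal medians, with no filter or a stricter one, and without moderation. Without WT replicate 2 Cdkn2d was called as well.

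Cyclin D turnover, through ligases such as those built on Fbxw8 and kinases such as Gsk3a, held 0 called genes of 8 with a median of 0.02. Fbxw8 had an FPKM of 26.3 and 21.6 in WT against 19.0 and 16.4 in CD274-null, and Gsk3a of 51.7 and 43.2 against 56.0 and 55.5. Neither difference met the threshold. Usp2, which encodes a deubiquitinase of cyclin D1, was called without WT replicate 1, and was at 4.12 and 0.896 in WT against 3.82 and 5.11 in CD274-null. Other E2F and DP genes, the remaining factors and their dimerization partners, also held 0 called genes of 8, with a median of -0.20. Tfdp1, the main partner of the E2Fs, was the most abundant at 97.1 and 66.3 FPKM in WT against 91.2 and 104 in CD274-null. The repressor gene E2f8 was at 72.2 and 60.2 against 56.3 and 53.2, and E2f4, whose product acts with p107 and p130, was at 56.4 and 46.3 against 47.3 and 38.4. E2f8 was above E2f1 in all 4 libraries and E2f4 in 3 of 4.

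Partners of RB on chromatin, such as the deacetylase gene Hdac2, the remodeller gene Smarca4 and Rbbp7, held 0 called genes of 10 with a median of -0.03. Hdac2 had an FPKM of 66.6 and 40.2 in WT against 55.6 and 48.8 in CD274-null, Smarca4 of 49.7 and 44.1 against 44.5 and 44.9, and Rbbp7 of 70.1 and 71.2 against 62.8 and 47.7. The MuvB and MYB genes, which form complexes with p107 and p130 or with B-Myb, held 0 called genes of 7 with a median of -0.16. Rbbp4 was at 87.1 and 93.2 FPKM in WT against 84.0 and 77.4 in CD274-null, Mybl2 (B-Myb) at 29.7 and 23.1 against 23.6 and 16.2, and Lin37 at 14.4 and 20.9 against 20.5 and 22.0. Lin54 in the MuvB list (10.6 and 9.52 against 6.26 and 5.66, log2 fold change -0.71) and Kdm5a among the RB partners (11.7 and 14.7 against 8.91 and 7.83, -0.62), named after their values were seen, had the largest decreases of these lists, short of a call.

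Downstream, the cyclin E/A-CDK2 list held 0 called genes of 9 tested, with a median of -0.04. Cdk2 had an FPKM of 55.8 and 59.9 in WT against 73.6 and 72.7 in CD274-null (0.34, 95% interval -0.14 to 0.81). Ccna2 (cyclin A2) was at 73.6 and 77.0 against 69.1 and 53.5, and Cdc37, a chaperone of kinases including CDK4, at 123 and 98.9 against 116 and 94.3. These 3 genes were the most abundant of the list, and none met the threshold.

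E2F target genes of S phase, which carry out DNA replication, held 0 called genes of 35. Of these, 29 had a higher and 6 a lower mean log2 level in CD274-null, beside 6757 of 13230 higher among all tested genes, the median log2 fold change was 0.24, and 1 had an unadjusted p under 0.05. Mcm6 and Mcm3, subunits of the replicative helicase, had an FPKM of 157 and 118 against 158 and 165, and of 124 and 96.4 against 155 and 148. Pcna, the sliding clamp, was at 172 and 113 in WT against 134 and 178 in CD274-null. In WT replicate 2, 34 of the 35 genes were below WT replicate 1, compared with 44.5% of all tested genes. Summed FPKM of the list was 2294 in WT replicate 1, 1552 in WT replicate 2, and 2207 and 2226 for CD274-null, so the other 3 libraries were alike. Calls in this list depended on the WT library compared, since Cdc6, Gins1 and Pold1 were called without WT replicate 1 and Rrm2 without WT replicate 2.

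Genes of G2 and mitosis held the gene called higher among 15 tested, with a median of 0.09. Top2a, topoisomerase II alpha, had an FPKM of 66.3 and 47.0 in WT against 102 and 108 in CD274-null, with a log2 fold change of 0.90 (95% interval 0.32 to 1.48, unadjusted p of 0.00864, adjusted p of 0.274 in limma). Mki67, the gene of the proliferation antigen Ki-67, was at 88.9 and 72.1 against 89.0 and 102, and Ccnb2 (cyclin B2) at 105 and 140.0 against 107 and 80.0. Of the libraries left out in turn, Top2a was called only without WT replicate 1, and its call was also lost with no filter, with equal medians, without a trend and without moderation. Aurka, a mitotic kinase gene, was called without WT replicate 2.

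**Figure D4:**
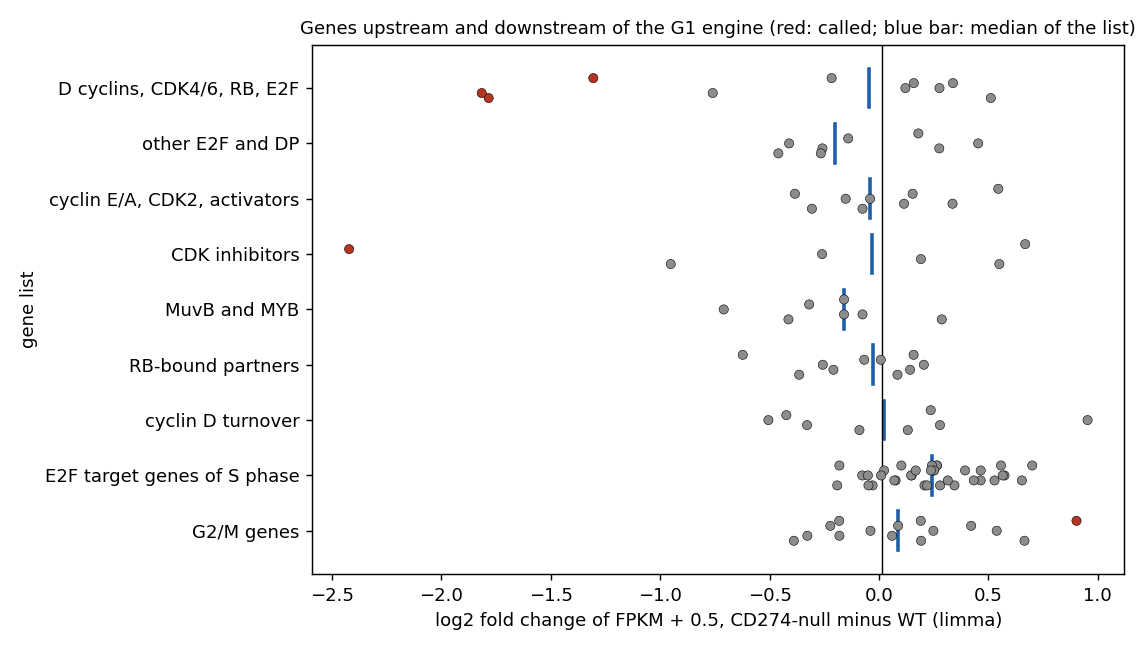
Log2 fold change of FPKM + 0.5 (CD274-null minus WT, limma, horizontal axis) of each tested gene, by list (vertical axis), with called genes in red, blue bars at the list medians and the vertical line at the median of all tested genes. Called genes are Ccnd1, Ccnd2 and Cdk6 in the top row, Cdkn2a among the inhibitors and Top2a among G2/M genes, and 29 of 35 E2F targets lie above 0, as do 6757 of all 13230 tested genes.

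Markers of other cells were read beside the 3 called genes. Of 10 B cell genes, 1 was tested and 0 called, and their summed FPKM was 13.2 and 37.1 in WT against 37.6 and 40.9 in CD274-null, nearly all from Cd79b. Cd79b was at 12.8 and 36.2 in WT against 35.6 and 37.4 in CD274-null, and Pax5 and Ms4a1 were listed at 0 in both WT libraries. Of 8 plasma cell genes, 3 were tested and 2, Igkc and Jchain, called higher in CD274-null, both also with an adjusted p under 0.05 (0.00245 and 0.0369 in limma), and the sum was 186 and 75.8 against 361 and 308, with Xbp1, which was not called, at 177 and 66.8 against 133 and 106, Igkc at 8.64 and 7.98 against 214 and 189, and Jchain at 0.370 and 0.514 against 12.3 and 10.5. Of 12 erythroid genes 11 were in the table, 4 were tested and 0 called, with sums of 67.3 and 87.0 against 68.8 and 105, most of it Tfrc except in WT replicate 2, where Tfrc was at 31.2 FPKM. Slc4a1, which marks late erythroid cells, was listed at 0 in all 4 libraries, while the globin genes Hba-a1, Hba-a2 and Hbb-bs were at 18.1, 9.42 and 26.9 FPKM in WT replicate 2 and at most at 3.01 in the others. T cell genes summed to at most 5.56 FPKM, and of 10 neutrophil genes 0 were called. Of 9 macrophage genes 5 were tested and 1 called lower, with sums of 148 and 143 against 89.8 and 106. The called gene was Vcam1, an adhesion molecule gene, at 117 and 92.3 FPKM in WT against 53.7 and 59.8 in CD274-null, whereas Adgre1 (F4/80) overlapped at 22.2 and 47.1 against 28.4 and 42.6. Of the genes of the sorted LICs, Mpo, a granule enzyme of early myeloid cells, was called higher, at 444 and 403 in WT against 1427 and 925 in CD274-null. The part of the plasma cell, Vcam1 and Mpo differences in the lower Ccnd1, Ccnd2 and Cdk6 was not tested.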

How the data were processed

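RNA labelled as from sorted LICs (4 libraries, TruSeq v2, HiSeq2500) was processed by the authors with CASAVA 1.8.2 and TopHat2 2.0.12 on GRCm38, per the submitters' processing notes. The values the authors deposited are FPKM per gene, and the program that computed them is not given in the sources used here. Libraries were grouped by their titles (0 columns without a sample). Symbols came from RefSeq of GRCm38.p6 (25275 of 27179 with a symbol). Whole reads and gene lengths were recovered from the FPKM steps (17081 of 17083 genes, tolerance 0.002), and intervals from these reads cover counting error only. Groups were compared on log2(FPKM + 0.5), keeping genes whose mean FPKM was 0.5 or more, by limma 3.58.1 (R 4.3.3, eBayes with a trend), two-sided, with Benjamini-Hochberg adjustment over all tested genes. The pseudocount makes fold changes of low genes smaller. The fit was also run on simulated reads that assumed the same spread between libraries for every gene, so that run does not test the calls made here. The genes named by rule are the 10 members, called genes of each list, the 3 most abundant genes of each list, and Cd274, Itgam and Kit. An item that these rules name is not reported here. Marker lists were also read, and some of their genes are named. Genes called only in an alternative fit, such as Usp2, Cdc6 and Aurka, are named as well. Neighbouring genes, Hbb-bs, Igkc, Xist and the genes of the Y chromosome were added after their values were seen. Members and lists were chosen with earlier results of these data known. Alternatives were other pseudocounts, filters and scalings, eBayes without trend, no moderation, the replicate number as a block, voom, a GC correction and leaving out each library.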

Additional observations from a re-analysis of the deposited data

How the results depend on the processing

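No alternative gave any of the 10 genes an adjusted p under 0.05, and Ccnd1, Ccnd2 and Cdk6 were lower in the CD274-null libraries in every fit that tested them. Of the 10 genes, 3 were called, but 1 with a mean FPKM of at least 5, which leaves Ccnd1 and Ccnd2 untested, 0 without moderation, and 0 to 2 when a library was left out (0 without CD274-null replicate 2). Ccnd1 was not called without a filter (-1.78, unadjusted p of 0.0205), without moderation (-1.78, unadjusted p of 0.0959) or under GC correction with the replicate block (-1.79, unadjusted p of 0.0144), Ccnd2 not without moderation (-1.82, unadjusted p of 0.0399), and Cdk6 not without moderation (-1.31, unadjusted p of 0.0138). The cause was not tested. Leaving out each library gave -2.25 to -1.32 for Ccnd1, -2.19 to -1.44 for Ccnd2, -1.45 to -1.16 for Cdk6, -0.22 to 0.77 for Ccnd3, -0.17 to 0.49 for Cdk4, -0.095 to 0.34 for Rb1, 0.02 to 0.66 for Rbl1, -0.64 to 0.21 for Rbl2, 0.13 to 0.89 for E2f1 and -1.41 to -0.11 for E2f2, where a lone library was assumed to vary like the other group, and the sign turned for Ccnd3 (-0.22), Cdk4 (-0.17), Rb1 (-0.095) and Rbl2 (0.21) without WT replicate 2, for Cdk4 (-0.02) without CD274-null replicate 1 and for Rb1 (-0.01) without CD274-null replicate 2. Of the listed pathway genes 2 were called (Cdkn2a and Top2a), but without a filter 1 other gene (Ccna1), 1 with a mean FPKM of at least 5, 0 with equal medians, 1 without trend, 0 without moderation, 1 by voom, and 0 to 6 when a library was left out. Over all tested genes 480 were called, 170 without moderation, 272 under GC correction with the replicate block, and 147 to 634 when a library was left out. Deviations of same-numbered libraries had a correlation of -0.02 over 13230 genes, so the numbers were not taken as pairs. The replicate block called 526 genes, with 21 at an adjusted p under 0.05 against 10, and 3 of the 10 pathway genes. Over all alternatives that kept every library, the count of tested genes at an adjusted p under 0.05 ranged from 0 to 21. It was 0 by voom, without moderation, and under GC correction with or without the block. With reads divided by all annotated exon bases, Ccnd3 made up 79.9% (WT) and 95.9% (CD274-null) of its family, Cdk6 25.02% and 10.5%, E2f1 66.5% and Rbl1 47.8% in CD274-null, a change set by gene length alone. Depth limits Ccnd1 and Ccnd2, which rest on 32 to 74 reads in the CD274-null libraries.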

Other observations

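In the cyclin E/A-CDK2 list 3 genes differed widely between the WT libraries, and they were chosen after their values were seen. Of the 10 genes of that list, 4 were lower in WT replicate 2 than in WT replicate 1, compared with 44.5% of all tested genes. Ccne1 and Ccne2 encode the E cyclins that drive CDK2 at the entry into S phase. Ccne1 had an FPKM of 31.2 in WT replicate 1 and of 9.59 in WT replicate 2, with 18.4 and 19.3 for CD274-null between them. Ccne2 was at 24.8 and 10.2 in WT against 12.2 and 16.7 in CD274-null, again between the WT values. Cdc25a, the phosphatase gene that activates CDK2, was at 46.1 and 19.6 in WT against 41.7 and 46.8 in CD274-null. The log2 fold changes were 0.11, -0.15 and 0.55, and none of the 3 was called, although Cdc25a was called when WT replicate 1 was left out. WT replicate 2 was the lowest of the 4 libraries for all 3 genes, as it was for E2f1.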
